A study of Mus musculus with 6 samples.

Results

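Mitochondrial ribosomal proteins are nuclear-encoded components of the ribosome inside mitochondria, and their genes were taken here by name as the Mrpl and Mrps symbols followed by a number. This rule found 76 of the 11417 genes in the deposited table, and all 76 passed the filter for testing (at least 1 RPKM in at least 2 libraries). RPKM is the number of reads scaled by gene length and by the depth of the library. Of the 76, 49 were counted with the large subunit (the Mrpl genes plus Mrps30 and Mrps18a, whose proteins sit in the large subunit despite their names). The remaining 27 were counted with the small subunit by their names, Mrps36 among them, although its protein is now known as a component of the oxoglutarate dehydrogenase complex. By a list of gene numbers, 44 were counted as having a counterpart in the bacterial ribosome and the other 32 as specific to mitochondria. This assignment was not checked gene by gene. The mitochondrial-DNA encoded transcripts and Mrpl58 were not analysed here.

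Poly(A) RNA of 3 untreated, established mouse mammary lines that the labels call epithelial was sequenced as 2 libraries per line. BC44 cells grew on plastic in RPMI with 10% serum and insulin at 5 µg/ml, HC11 cells in that medium plus EGF at 10 ng/ml, and C57MG cells in DMEM with 10% serum and insulin at 10 µg/ml. All were harvested 2 days after plating, so line and medium cannot be told apart. Nothing in the labels says whether 2 libraries of a line came from separate cultures, and p-values measure only the spread between these libraries. The epithelial label was checked against its markers, of which 12 of 14 were in the table. Their summed level was 4905 to 5111 RPKM in BC44 and 2509 to 3379 in HC11, against 65.9 to 138 in C57MG. Between BC44 and HC11 most single markers went against the order of the sums. Of 11 tested, 1 was higher in BC44 (9.09%) and 7 in HC11 (63.6%) at a limma adjusted p under 0.05. The shares of all tested genes were 24.7% and 23.0%. Cdh1, Cldn3, Cldn4, Epcam, Esrp1 and Krt7 were listed at 0 in C57MG replicate 2, and Cldn3, Krt18 and Krt7 in replicate 1; Cldn3 and Krt18 were listed at 0 in both BC44 libraries. The 11 mesenchymal markers in the table (of 12) summed to 7150 to 7383 RPKM in C57MG, 298 to 382 in BC44 and 259 to 333 in HC11. The C57MG libraries thus went against the epithelial label and carried mesenchymal markers, and the part of this difference in the results below was not tested. Estimated depth was 14070000 to 18360000 reads per library, which put 158 to 9499 estimated reads on each mitochondrial ribosomal protein gene.

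The mitochondrial ribosome translates the few proteins that mitochondrial DNA encodes, all of them subunits of the oxidative phosphorylation complexes. Its RNA comes from mitochondrial DNA, while every protein is made in the cytosol and imported, so the nuclear genes for the parts must be expressed together with those for assembly factors, translation factors and aminoacyl-tRNA synthetases. The promoters of such genes are known for sites of NRF1, of ETS factors such as GABP, and of YY1.

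The summed level of the genes was lowest in C57MG, with no test made on sums. Summed over the 76 genes, the level was 2508 and 2620 RPKM in BC44 replicates 1 and 2, against 2684 and 2630 for HC11 and 2101 and 2010 for C57MG. The means were 2564 ± 79.2 (SD, n = 2) in BC44, 2657 ± 38.3 in HC11 and 2055 ± 64.5 in C57MG. Both C57MG libraries lay below all others, and the BC44 and HC11 values were close to each other. After rescaling every library to a common sum the means were 2578, 2560 and 2124 RPKM, which turned the order of BC44 and HC11 and left C57MG lowest. The median gene stood at 24.3 ± 0.48 RPKM in BC44, close to the 24.8 ± 0.0863 of HC11, and at 20.2 ± 0.628 in C57MG. In bulk RNA a lower level in every cell and a lower share of expressing cells cannot be told apart.

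Most of the genes were above the typical gene of the table. Between 63 and 69 of the 76 exceeded the median of all tested genes, which was 10.1 to 10.3 RPKM in the 6 libraries. At the top stood Mrpl12, the flexible stalk protein that brings translation factors to the ribosome, with a mean of 179 RPKM over the 6 libraries. Mrpl42 and Mrpl52, mitochondria-specific proteins of the large subunit, followed with 119 and 107 RPKM. At the bottom stood Mrps35 with 5.46 RPKM, Mrps10 (the counterpart of bacterial S10) with 5.06 and Mrpl48 with 4.34. The proteins are built into the ribosome in fixed numbers, whereas the levels per length ran from 3.33 to 5.15 RPKM for the lowest gene of a library up to 125 to 240.2 for the highest.

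C57MG was the line with the lowest mean for 48 of the 76 genes (63.2%, against 42.9% of all tested genes). BC44 had the highest mean for 31 genes (40.8%, against 33.6% of all tested genes) and HC11 for 28 (36.8%, against 27.9%). C57MG had it for 17 (22.4%, against 38.6%). In a limma fit across all 10759 tested genes on the log2(RPKM + 1) scale, 44 of the 76 genes (57.9%) had an adjusted p under 0.05 between BC44 and C57MG, where 71.7% of all tested genes did. Of these 37 were higher in BC44 (48.7% of the 76, against 37.5% of all tested genes) and 7 in C57MG (9.21%, against 34.1%). Between HC11 and C57MG 47 of the 76 (61.8%, against 70.5%) passed, 39 of them higher in HC11 (51.3%, against 37.4%) and 8 in C57MG (10.5%, against 33.2%). With every library rescaled to the same sum this split was 31 and 13. The shares of all tested genes under that scaling are not given here, and those above do not apply to it. The median difference of the 76 genes on the log2(RPKM + 1) scale was 0.26 for BC44 minus C57MG and 0.27 for HC11 minus C57MG, where all tested genes had medians of 0.04 and 0.03. After the rescaling to the same sum, the medians for HC11 minus C57MG were 0.17 for the 76 genes and -0.06 for all tested genes. The 2 comparisons share the C57MG libraries. Without C57MG replicate 2 the median for BC44 minus C57MG was 0.22 for the 76 genes and 0.04 for all tested genes.

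BC44 and HC11 differed in fewer of the genes and without a common direction. Of the 76 genes 26 (34.2%) passed, 13 higher in BC44 (17.1%, against a background of 24.7%) and 13 higher in HC11 (17.1%, against 23.0%), where 47.7% of all tested genes passed. The median difference was 0.00. Without BC44 replicate 1 it was 0.01, against 0.04 for all tested genes. Of the 49 large subunit genes 12 were higher in BC44 (24.5%, close to the background) and 7 in HC11 (14.3%). Of the 27 small subunit genes 1 was higher in BC44 (3.7%) and 6 in HC11 (22.2%, close to the background). The difference between the subunits was not tested.

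**Figure D1:**
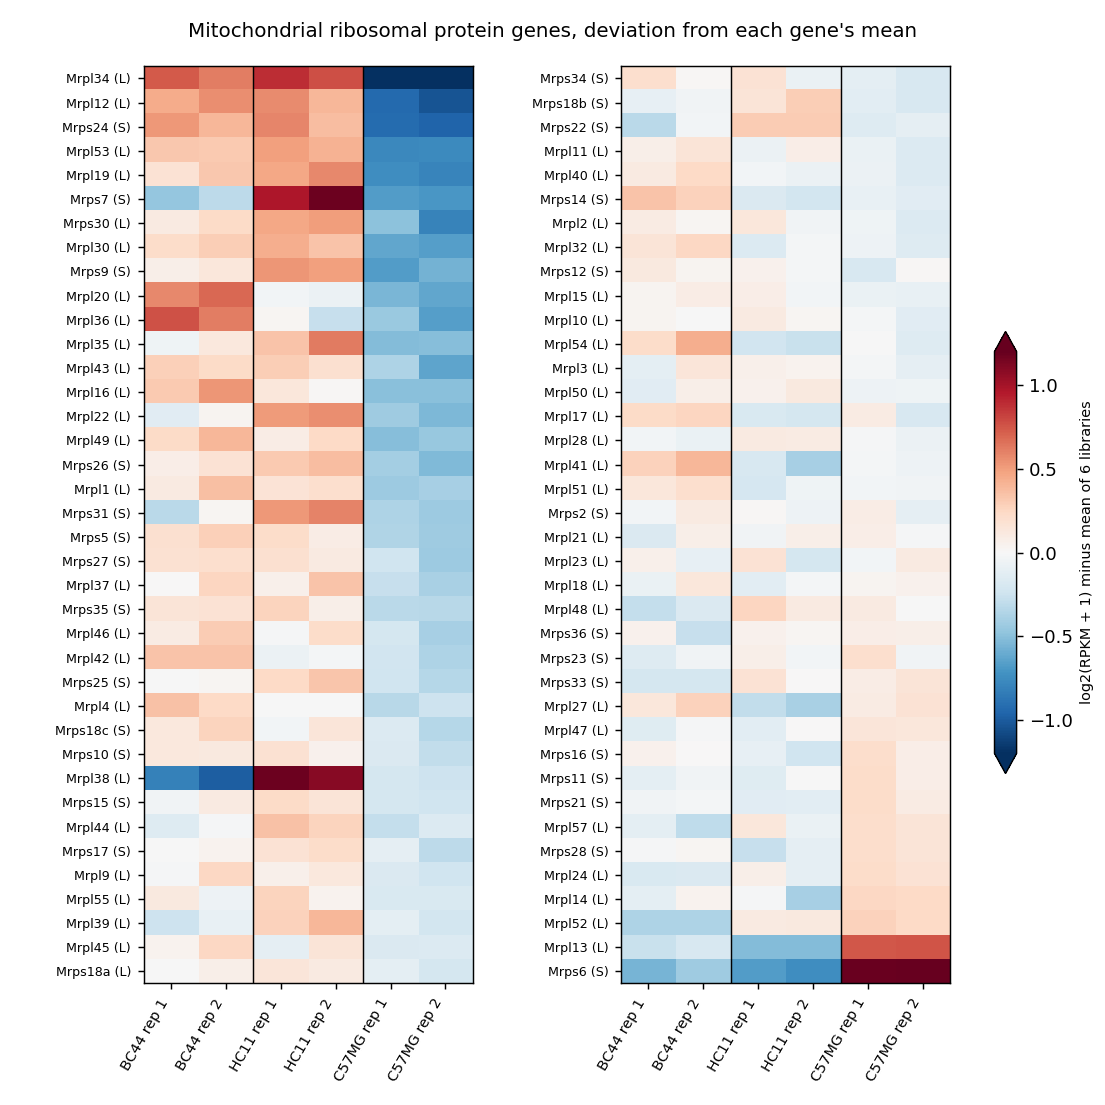
Level of each of the 76 genes in the 6 libraries as log2(RPKM + 1) minus the gene's mean over all libraries (colour), with L for large and S for small subunit, ordered by the C57MG level. Most rows of the left panel are blue in C57MG; Mrps7 and Mrpl38 are red in HC11 alone, and Mrpl13 and Mrps6 at the bottom right are red in C57MG alone.

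The differences of most of these genes were small. At least 2-fold differences that also passed the test were found for 2 of the 76 between BC44 and HC11 (2.63%, against 12.5% of all tested genes), 8 between BC44 and C57MG (10.5%, against 29.8%) and 14 between HC11 and C57MG (18.4%, against 27%). The distance between the quartiles of the differences was 0.30, 0.56 and 0.61 log2 units in the 3 comparisons, against 0.59, 1.14 and 1.06 for all tested genes. No comparison was passed by 17 of the 76 genes (22.4%, against 14% of all tested genes), and 12 (15.8%, against 26.8%) passed in all 3. Among the 17 were Mrpl10, which anchors the stalk, and Mrps12, the counterpart of the S12 protein at the decoding site. The smallest range between line means belonged to Mrpl23 (0.06 log2 units), Mrps2 (0.07) and Mrpl21 (0.08), counterparts of bacterial L23, S2 and L21. Mrpl21 stood at 22 and 26.2 RPKM in BC44, at 24.2 and 26.2 in HC11 and at 26.4 and 24.6 in C57MG, so its lines overlapped.

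**Figure D2:**
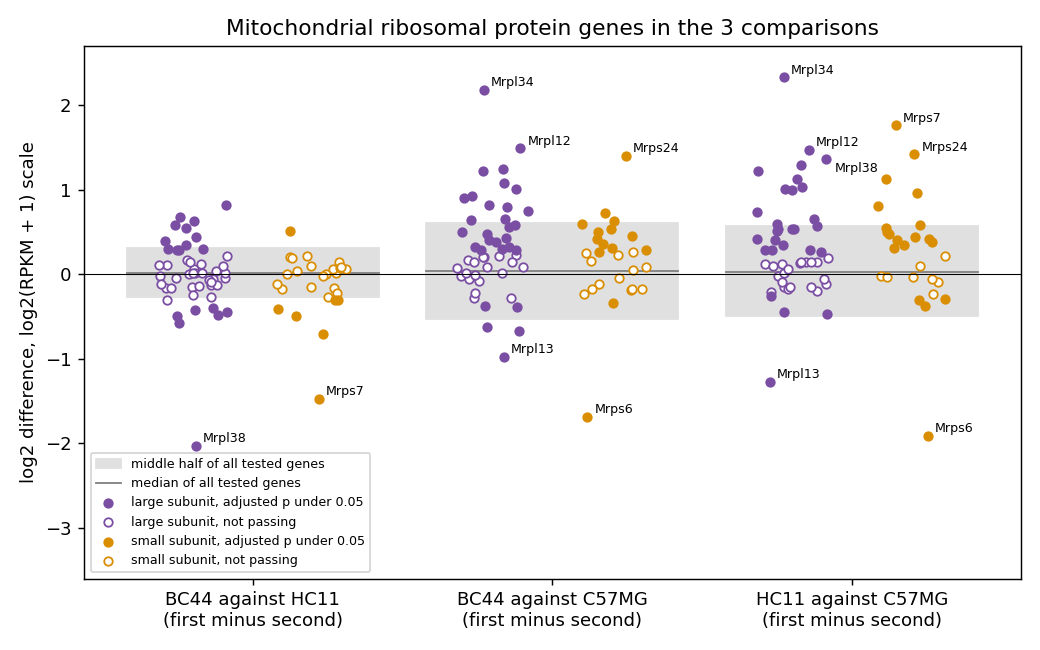
Difference of each of the 76 genes between lines (points, log2(RPKM + 1) scale, first line minus second) by subunit, filled where the limma adjusted p is under 0.05, over the median (line) and interquartile range (grey box) of all tested genes. Most points lie within the grey boxes; Mrpl34 is highest in both comparisons with C57MG at 2.18 and 2.33, and Mrps6 lowest at -1.69 and -1.91.

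The genes that stood farthest from the rest follow, and the promoters of 6 of them are printed to show which hold letters of factors known to bind in this gene family and which do not. Promoter sequences were available from RefSeq (GRCm38.p6) for 67 of the 76 genes and run from 250 bases before to 50 after the annotated start. Capitals mark the letters searched on both strands: CCGGAAG for ETS factors, AAGATGGC for YY1, the NRF1 palindrome and CACGTG for the E-box bound by MYC. No searched motif is part of another, and the lines below read 5′ to 3′ on the gene's strand. The start is RefSeq's and need not be that of the GENCODE gene spans given below: of the 73 windows of the 67 genes, 51 have starts within 100 bases of the GENCODE start and 5 differ by more than 1 kb. The RefSeq start lies 7979 bases inside the GENCODE gene for Mrps24, 2496 for Mrpl36 and 215 for Mrps7, and within 66 bases for the others printed. The printed windows cover chr8:71464676-71464975 (plus strand), chr11:120484387-120484686 (plus), chr11:5707652-5707951 (minus), chr13:73330759-73331058 (plus), chr16:92058086-92058385 (plus) and chr11:115603890-115604189 (plus).
Mrpl34: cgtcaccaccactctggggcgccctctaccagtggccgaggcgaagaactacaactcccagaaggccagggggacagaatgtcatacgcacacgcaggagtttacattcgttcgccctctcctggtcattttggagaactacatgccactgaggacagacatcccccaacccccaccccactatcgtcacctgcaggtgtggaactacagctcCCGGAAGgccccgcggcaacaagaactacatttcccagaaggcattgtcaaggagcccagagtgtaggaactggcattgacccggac
Mrpl12: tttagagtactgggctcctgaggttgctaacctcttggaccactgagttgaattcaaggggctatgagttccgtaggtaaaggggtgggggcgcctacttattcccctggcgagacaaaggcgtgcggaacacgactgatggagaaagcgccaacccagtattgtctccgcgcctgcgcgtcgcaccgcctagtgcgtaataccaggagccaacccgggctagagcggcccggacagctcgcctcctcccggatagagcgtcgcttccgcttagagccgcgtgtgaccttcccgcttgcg
Mrps24: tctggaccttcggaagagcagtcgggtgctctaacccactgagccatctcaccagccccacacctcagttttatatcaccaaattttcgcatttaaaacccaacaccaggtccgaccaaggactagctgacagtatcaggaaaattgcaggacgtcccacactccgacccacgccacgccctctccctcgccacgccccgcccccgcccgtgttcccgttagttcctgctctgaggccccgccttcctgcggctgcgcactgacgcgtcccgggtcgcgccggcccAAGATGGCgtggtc
Mrpl36: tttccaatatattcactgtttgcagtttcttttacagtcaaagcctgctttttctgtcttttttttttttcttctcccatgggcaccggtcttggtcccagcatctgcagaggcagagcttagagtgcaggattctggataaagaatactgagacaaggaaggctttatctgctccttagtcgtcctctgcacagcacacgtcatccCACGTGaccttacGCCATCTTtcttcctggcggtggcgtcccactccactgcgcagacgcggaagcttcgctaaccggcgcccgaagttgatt
Mrps6: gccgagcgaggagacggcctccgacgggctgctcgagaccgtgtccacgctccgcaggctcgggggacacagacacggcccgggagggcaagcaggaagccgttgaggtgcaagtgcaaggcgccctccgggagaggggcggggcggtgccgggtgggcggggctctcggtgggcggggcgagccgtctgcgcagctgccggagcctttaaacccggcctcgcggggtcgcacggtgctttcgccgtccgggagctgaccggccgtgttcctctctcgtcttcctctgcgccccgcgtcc
Mrps7: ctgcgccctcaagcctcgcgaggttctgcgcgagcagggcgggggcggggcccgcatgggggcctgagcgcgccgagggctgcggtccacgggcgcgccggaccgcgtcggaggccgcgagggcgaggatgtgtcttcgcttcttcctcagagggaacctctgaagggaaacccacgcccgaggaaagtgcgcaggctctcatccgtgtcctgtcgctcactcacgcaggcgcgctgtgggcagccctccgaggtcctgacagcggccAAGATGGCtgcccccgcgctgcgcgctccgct

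Mrpl34 holds the ETS letters with their first base at position -37 from the RefSeq start, Mrps24 and Mrps7 the YY1 letters just after the start (36 and 18), and Mrpl36 the E-box at -43 beside the YY1 letters on the other strand at -30. Mrpl12 and Mrps6 hold none of the 4 in this window. Over the set, the ETS letters occur in 24 of the 67 promoters (35.8%), against 21.2% of the 8507 other tested genes with a promoter and 8.86% of all 32851 promoters. The YY1 letters occur in 12 (17.9%, against 5.61% and 2.75%), the NRF1 palindrome in 3 (4.48%, against 2.47% and 0.971%) and the E-box in 5 (7.46%, against 12.2% and 7.15%). A match is only a match of letters, and no binding was measured.

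Mrpl34, the counterpart of the small bacterial protein L34, had the largest difference between lines among the 76 genes. It lies at chr8:71464959-71465747 on the plus strand (GRCm38, GENCODE M21). The BC44 libraries held 81.1 and 74.5 RPKM, the HC11 libraries 89.8 and 83.2, and the C57MG libraries 15.8 and 17.0. The C57MG libraries were far below all others, and BC44 and HC11 did not differ in the test. BC44 was 4.75-fold and HC11 5.28-fold above C57MG in mean RPKM, or 2.18 ± 0.08 (SE) and 2.33 ± 0.08 on the log2(RPKM + 1) scale with limma adjusted p of 5.16e-07 and 4.85e-07.

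Mrpl12, the stalk protein, lies at chr11:120484613-120489065. It stood at 219.8 and 239 RPKM in BC44, at 240.2 and 214 in HC11 and at 83.98 and 78.5 in C57MG. Again both C57MG libraries were lowest, by 1.49 ± 0.09 log2 units from BC44 and 1.47 ± 0.09 from HC11 (limma adjusted p = 4.13e-06 and 5.04e-06). Mrpl10, its anchor on the ribosome, was at 55.6 and 54.1 RPKM in BC44, at 58.5 and 55.2 in HC11 and at 53.4 and 49.3 in C57MG, and passed no test. The ratio of Mrpl12 to Mrpl10 was accordingly 3.95 and 4.42 for the BC44 libraries, 4.11 and 3.87 for HC11 and 1.57 and 1.59 for C57MG. Several copies of the Mrpl12 protein bind to each Mrpl10 protein.

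Mrps24, the counterpart of bacterial S3, lies at chr11:5703983-5715680 on the minus strand and overlaps Urgcp on that strand, so its value depends on how shared reads were counted. It was at 36.7 and 33.7 RPKM in BC44, at 38.5 and 32.9 in HC11 and at 12.9 and 12.5 in C57MG. C57MG was lower by 1.40 ± 0.10 and 1.42 ± 0.10 log2 units (limma adjusted p = 9.93e-06 and 1.09e-05). Mrpl53, which is mitochondria-specific, and Mrpl19, the counterpart of bacterial L19, were likewise lowest in C57MG. Mrpl53 was at 58.2 and 57.8 RPKM in BC44, at 65.6 and 62.1 in HC11 and at 26.7 and 26.9 in C57MG. Mrpl19 was at 11.3 and 12.7, 14.2 and 15.4, and 5.56 and 5.36 RPKM in the same order. The other members that were at least 2-fold higher in HC11 than in C57MG and passed were Mrps30, Mrps9, Mrpl30, Mrpl22 and Mrpl35, besides Mrps7 and Mrpl38 described below.

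Mrpl36 and Mrpl20, counterparts of bacterial L36 and L20, were highest in BC44. Mrpl36 (chr13:73328513-73332178) was at 58.3 and 52.4 RPKM in BC44, at 34.4 and 27.8 in HC11 and at 24.7 and 21.1 in C57MG. BC44 exceeded HC11 by 0.82 ± 0.13 and C57MG by 1.24 ± 0.13 log2 units (limma adjusted p = 0.0016 and 7.20e-05). Ndufs6, a complex I subunit gene that starts 29 bases away on the other strand in GENCODE, differed by 0.56 between BC44 and C57MG and by 0.11 between BC44 and HC11, the latter at a limma adjusted p of 0.352. Mrpl20 was at 67.0 and 72.3 RPKM in BC44, at 43.5 and 42.4 in HC11 and at 29.96 and 28.5 in C57MG. Its 3 lines did not overlap, and every difference passed. Mrpl41, a mitochondria-specific protein gene, was at 37.4 and 40.9 RPKM in BC44 against 26.7 and 23.1 in HC11, a difference of 0.63 ± 0.10 (limma adjusted p = 0.0014).

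**Figure D3:**
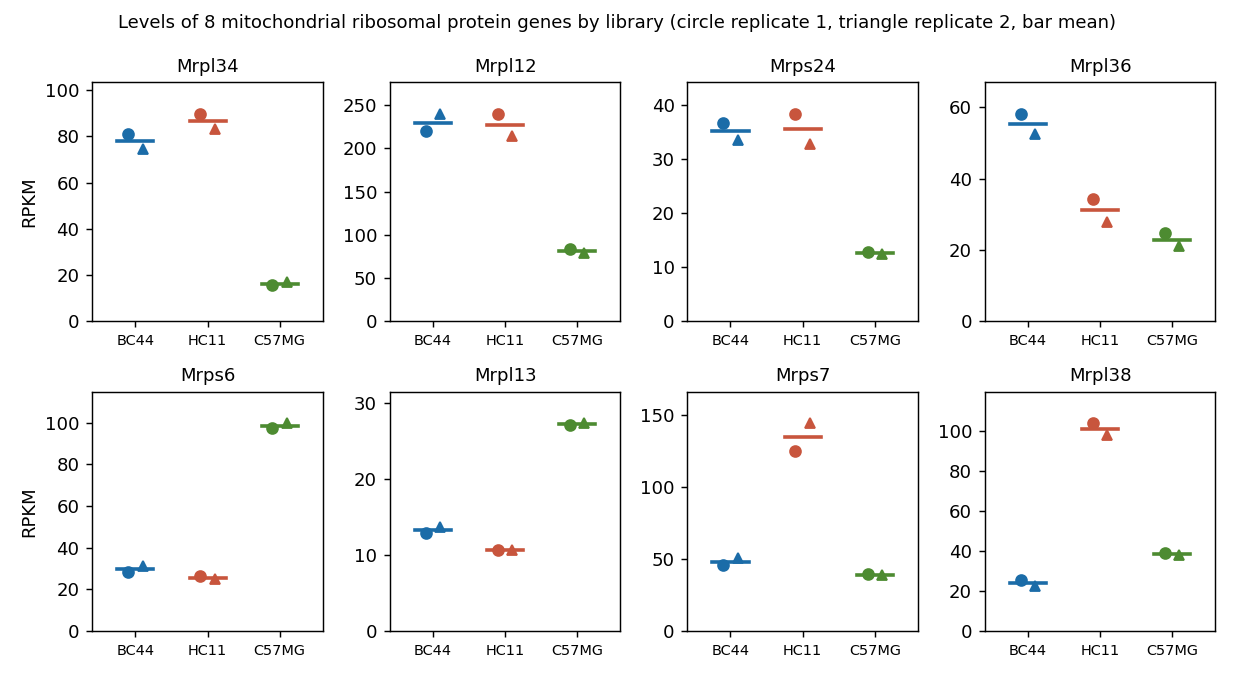
RPKM of 8 genes in each library (circle replicate 1, triangle replicate 2, bar mean of the line; axes start at 0). Mrpl34, Mrpl12 and Mrps24 are lowest in C57MG, Mrpl36 is highest in BC44, Mrps6 and Mrpl13 are highest in C57MG, and Mrps7 and Mrpl38 are highest in HC11.

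Mrps6 and Mrpl13 went the other way from the set. Mrps6, the counterpart of bacterial S6, lies at chr16:92058270-92112227 and was at 28.4 and 31.3 RPKM in BC44, at 26.2 and 24.9 in HC11 and at 97.5 and 99.97 in C57MG. Both C57MG libraries stood far above the rest: the log2 differences were -1.69 ± 0.08 for BC44 and -1.91 ± 0.08 for HC11 against C57MG (limma adjusted p = 1.29e-06 and 8.98e-07). Slc5a3, which encodes a myo-inositol transporter, overlaps Mrps6 on the same strand and starts 52 bases from it, so reads of the shared part could be assigned to either gene. Slc5a3 was at 1.32 and 1.37 RPKM in BC44, at 1.86 and 2.46 in HC11 and at 11.9 and 15.1 in C57MG, with log2 differences of -2.61 and -2.19 against C57MG. Mrpl13 (chr15:55534094-55557748, minus strand), the counterpart of L13, was at 12.9 and 13.7 RPKM in BC44, at 10.7 and 10.7 in HC11 and at 27.1 and 27.4 in C57MG. Its differences from C57MG were -0.98 ± 0.08 and -1.27 ± 0.08 (limma adjusted p = 2.45e-05 and 7.09e-06). Mtbp, which starts 340 bases from Mrpl13 on the other strand, differed from C57MG in the same direction by -0.59 in BC44 and -0.94 in HC11.

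Mrps7 and Mrpl38 were high in HC11 alone. Mrps7, the counterpart of S7 in the head of the small subunit, lies at chr11:115603925-115608036, and Mrpl38, a mitochondria-specific protein gene of the large subunit, at chr11:116131817-116138868. Mrps7 was at 45.6 and 50.6 RPKM in BC44, at 125 and 145 in HC11 and at 39.4 and 38.7 in C57MG. Mrpl38 was at 25.6 and 22.4 RPKM in BC44, at 104 and 98.0 in HC11 and at 39.1 and 38.1 in C57MG. The HC11 libraries lay above all others for both genes. BC44 minus HC11 was -1.47 ± 0.10 for Mrps7 and -2.03 ± 0.09 for Mrpl38 (limma adjusted p = 2.29e-05 and 3.60e-06), and HC11 minus C57MG was 1.76 ± 0.10 and 1.36 ± 0.09 (limma adjusted p = 2.83e-06 and 6.77e-06). These were the only 2 of the 76 genes with a passing difference of at least 2-fold between BC44 and HC11.

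Genes around Mrps7 and Mrpl38 differed between BC44 and HC11 in the same direction. In the window from 1 Mb before to 1.3 Mb after the start of Mrps7, chosen after the values were seen, the 50 other tested genes had a median BC44 minus HC11 difference of -1.36. Of these 48 had a negative difference and 39 one of at least 2-fold. Gga3, a Golgi adaptor gene that starts 126 bases from Mrps7 on the other strand, was at 5.25 and 5.51 RPKM in BC44 and 16.9 and 16.4 in HC11, a difference of -1.47, the value of Mrps7 itself. The 14 genes up to 6 Mb before the window had a median of -0.49 and the 71 genes up to 6 Mb after it, in which Mrpl12 lies, one of -0.04. Of the 71, 38 had a negative difference and 14 one of at least 2-fold. Among these 14 were Tk1 (-1.43) and Birc5 (-1.40), at 2.212 and 2.245 Mb from the start of Mrps7. The differences thus did not end at the edge chosen for the window. For HC11 minus C57MG the median was 1.12 in the window, 1.29 before it and 0.55 after it, so in that comparison the genes before the window differed by as much. DNA copy number and chromatin were not measured, and the part of this neighbourhood in the values of Mrps7 and Mrpl38 was not tested.

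**Figure D4:**
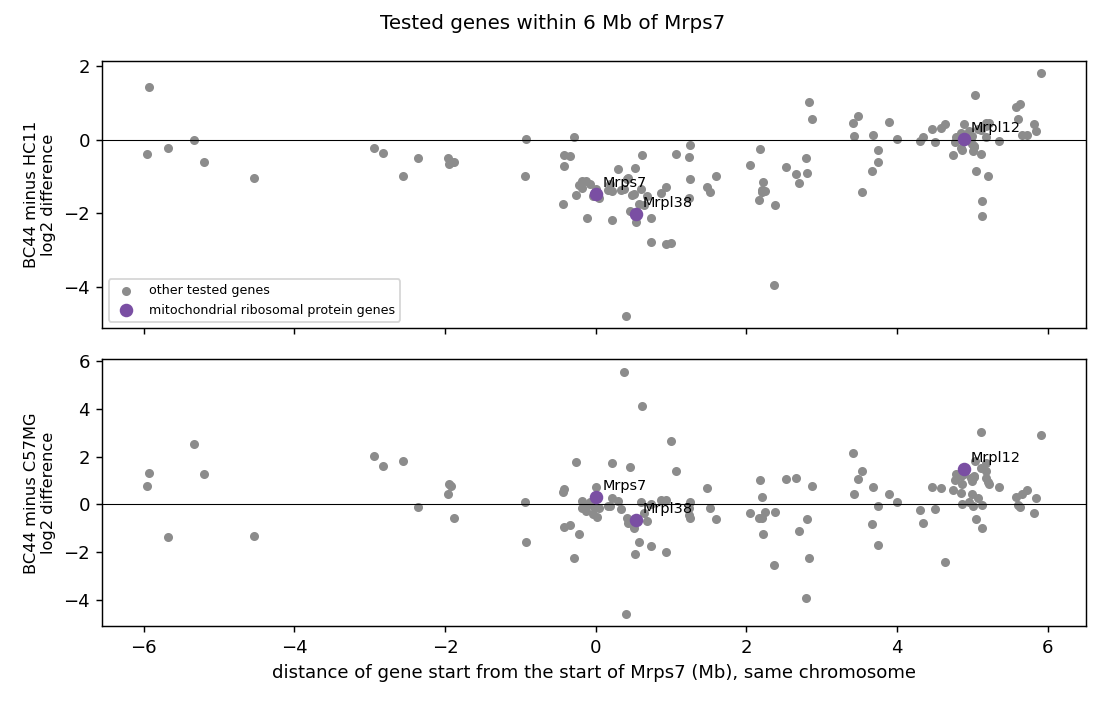
Difference of every tested gene within 6 Mb of Mrps7 (log2(RPKM + 1) scale) for BC44 minus HC11 (top) and BC44 minus C57MG (bottom) against the distance of its start from that of Mrps7. In the top panel 48 of the 50 grey points from -1 to 1.3 Mb lie below 0 around Mrps7 and Mrpl38, while the same genes scatter about a median of -0.15 in the bottom panel.

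The same comparison was made for every member with its chromosomal neighbours, the 20 tested genes on each side or as many as the chromosome holds. The genes lie on 17 chromosomes, 10 of them on chromosome 11. The median of the 76 differences after subtracting the neighbours' median was -0.04 for BC44 minus HC11, 0.20 for BC44 minus C57MG and 0.21 for HC11 minus C57MG. Across the 76 genes, which are not independent and in part share neighbours, Pearson's r between a gene's difference and that of its neighbours was 0.76, 0.50 and 0.67. Without Mrps7 and Mrpl38 it was 0.49, 0.50 and 0.62. No such r is given here for other genes, so these values do not set the 76 genes apart. Neighbours of Mrpl34 were also higher in BC44 than in C57MG (median 0.83, with 37 of 40 positive), and those of Mrpl12 had a median of 0.69. Neighbours of Mrps24 had a median of 0.07, those of Mrpl36 one of -0.04 and those of Mrps6 one of 0.29, against 1.40, 1.24 and -1.69 for the genes themselves. Neighbours of Mrpl13 differed by -0.62 and -0.93 from C57MG. Of the members with a passing difference of at least 2-fold, 0 of 2 between BC44 and HC11, 4 of 8 between BC44 and C57MG and 4 of 14 between HC11 and C57MG were also at least 1 log2 unit away from their neighbours.

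**Figure D5:**
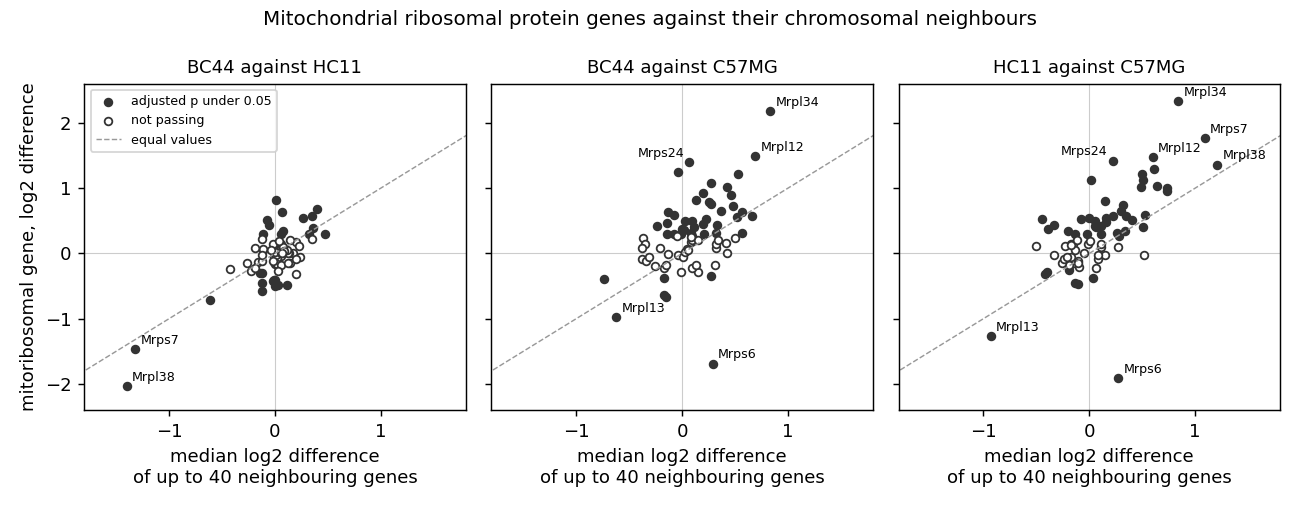
Difference of each of the 76 genes (vertical, log2(RPKM + 1) scale) against the median difference of up to 40 neighbouring genes (horizontal), filled where the limma adjusted p is under 0.05; the dashed line marks equal values. Mrps7 and Mrpl38 lie at neighbour medians of -1.32 and -1.40 in the left panel, and Mrps6 lies far below the line in the comparisons with C57MG.

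Many of these genes start next to a gene on the opposite strand. A tested partner on the opposite strand with its GENCODE start within 1 kb was found for 30 of the 76, and for 1585 of all tested genes. The latter gave 1588 entries of a gene with its partner, called pairs below. Each 2 neighbours are entered once from either gene, as are Mrpl46 and Mrps11 among the 30. Between BC44 and C57MG 15 of the 30 passed, and for 10 of the 15 (66.7%) the partner also passed in the same direction and for 1 (6.67%) in the opposite direction. Over all such pairs 65.2% of the genes passed, 55.2% of these with a like partner and 14.3% with an opposite one. Between BC44 and HC11 11 passed, 6 with a like partner (54.5%, against 45.7% over all pairs) and 0 with an opposite one (against 5.48%). Between HC11 and C57MG 16 passed, 7 with a like partner (43.8%, against 52.3%) and 2 with an opposite one (12.5%, against 15.1%). The shares of like partners thus lay on both sides of those over all pairs, and no difference was tested. Mrpl49 was one of the genes with such a partner: its partner Fau, 59 bases away, encodes a cytosolic ribosomal protein fused to a ubiquitin-like protein and exceeded C57MG by 1.02 log2 units in BC44 and 1.03 in HC11, where Mrpl49 did so by 0.79 and 0.65. Mrpl46 and Mrps11 share a start region of 412 bases: Mrpl46 was higher in BC44 than in C57MG by 0.50, and Mrps11 differed by -0.23 without passing (limma adjusted p = 0.0756). In all, 20 of the genes overlap another listed gene, 3 of them on the same strand, and whether counting used the strand is not given in the sources used here.

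The ratio of the summed levels of the 2 subunits differed among the lines, with no test made. The ratio of summed small to summed large subunit RPKM was 0.327 ± 0.00366 (SD, n = 2) in BC44, 0.386 ± 0.00882 in HC11 and 0.436 ± 0.000638 in C57MG. Without Mrpl12, Mrps6, Mrps7 and Mrpl38 the ratios were 0.33, 0.364 and 0.371, so most of the gap between HC11 and C57MG was carried by these 4 genes. The median HC11 minus C57MG difference was 0.35 for the small and 0.19 for the large subunit genes, against the order of the ratios. For BC44 minus C57MG the medians were close, at 0.25 and 0.29. Without Mrpl12, Mrps6, Mrps7 and Mrpl38 the summed level was still lowest in C57MG, at 1798 RPKM against 2233 for BC44 and 2169 for HC11.

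The other genes named by role, difference or level follow, with ranges between line means from 0.18 log2 units (Mrps36) to 1.13 (Mrps30). The 3 related S18 proteins, which occupy different places in the ribosome, were at 10.4 to 11.6 RPKM (Mrps18a), 18.1 to 24.1 (Mrps18b) and 25.4 to 31.4 (Mrps18c) in BC44 and HC11, and at 8.89 to 9.55, 16.9 to 17.7 and 20.3 to 23.0 in C57MG. All 3 had their lowest values in C57MG, although Mrps18a against BC44 had a limma adjusted p of 0.092 and Mrps18b one of 0.411. Mrps30, a large subunit protein gene, was at 31.7 and 34.5 RPKM in BC44, at 40.7 and 41.7 in HC11 and at 20.5 and 16.3 in C57MG, and was higher in HC11 than in C57MG by 1.13 ± 0.11 (limma adjusted p = 7.59e-05). Mrps36 was at 13.6 and 10.6 RPKM in BC44, at 13.5 and 13.3 in HC11 and at 13.8 and 13.7 in C57MG, and passed no test. Mrps31 was at 10.3 and 13.4 RPKM in BC44, at 19.2 and 20.4 in HC11 and at 9.94 and 9.42 in C57MG, and its neighbours also differed between BC44 and HC11 by a median of -0.61. Mrpl27, the counterpart of L27 near the peptidyl transferase centre, was lower in HC11 (33.6 and 31.5 RPKM) than in BC44 (45.5 and 50.3) and C57MG (44.3 and 46.8), by -0.47 ± 0.08 against the latter (limma adjusted p = 0.00159). Mrpl52 was at 81.0 and 81.4 RPKM in BC44, at 113 and 114 in HC11 and at 128 and 125 in C57MG, lowest in BC44. Mrpl42 was at 149 and 149 RPKM in BC44, at 112 and 115 in HC11 and at 99.7 and 90.4 in C57MG, highest in BC44.

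Other gene lists are read against the shares of all tested genes given above for BC44 (37.5% higher and 34.1% lower than in C57MG) and for HC11 (37.4% higher and 33.2% lower). Of the 5 mitochondrial ribosomal proteins whose names fall outside the rule, 3 were higher (60%) and 1 lower (20%) in BC44 than in C57MG. Ptcd3, an RNA-binding protein of the small subunit, was at 41.9 and 48.3 RPKM in BC44, at 60.4 and 70.0 in HC11 and at 25.9 and 25.3 in C57MG. Dap3, the GTP-binding protein of the small subunit, was highest in C57MG with 20.3 and 20.7 RPKM, against 10.4 and 11.3 in BC44 and 14.7 and 15.5 in HC11. Ptcd3 thus ranked with the majority of the set, and Dap3 with Mrps6 and Mrpl13.

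Among 24 assembly and rRNA modification factors 15 were higher (62.5%, against 37.5% of all tested genes) and 4 lower (16.7%, against 34.1%) in BC44 than in C57MG. In HC11 14 were higher (58.3%, against 37.4%) and 2 lower (8.33%, against 33.2%), and the medians were 0.44 and 0.37. Rpusd3, a pseudouridine synthase, was at 3.89 and 3.63 RPKM in BC44, at 3.36 and 3.42 in HC11 and at 1.05 and 0.99 in C57MG. Mterf4, which acts in large subunit assembly, was at 2.88 and 2.91, 1.66 and 1.59, and 4.57 and 4.75 RPKM, highest in C57MG. Of the 18 translation factors 5 were higher (27.8%) and 6 lower (33.3%) in BC44 than in C57MG, with the same counts in HC11; the share lower was near that of all tested genes in both comparisons (34.1% and 33.2%). Mtrf1, a release factor homologue, was at 0.037 and 0.123 RPKM in BC44, at 0.231 and 0.225 in HC11 and at 4.96 and 4.84 in C57MG. Mtif2, the initiation factor, was at 3.09 and 3.38 RPKM in BC44, at 6.26 and 6.48 in HC11 and at 12.9 and 13.3 in C57MG, with every difference passing. Tufm, the elongation factor, was at 44.5 and 48.8, 70.0 and 72.0, and 44.1 and 44.6 RPKM, highest in HC11.

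Of the 17 mitochondrial aminoacyl-tRNA synthetases 8 were higher (47.1%, against 37.5% of all tested genes) and 3 lower (17.6%, against 34.1%) in BC44 than in C57MG. In HC11 6 were higher (35.3%, near the 37.4% of all tested genes) and 2 lower (11.8%, against 33.2%). Mars2, for methionine, was at 10.8 and 12.7 RPKM in BC44, at 7.77 and 7.97 in HC11 and at 5.18 and 4.77 in C57MG. Lars2, for leucine, was uneven between replicates (64.0 and 61.0, 51.8 and 88.8, and 26.7 and 43.3 RPKM). Of 12 genes for mitochondrial DNA expression and upkeep 4 were higher in BC44 and 4 in HC11 than in C57MG (33.3% each, somewhat below all tested genes), and 1 (8.33%) and 3 (25%) were lower. Ssbp1, the single-stranded DNA binding protein, was at 12.7 and 12.8 RPKM in BC44, at 14.6 and 12.9 in HC11 and at 7.69 and 7.62 in C57MG, and Mterf1a at 4.01 and 3.92, 2.51 and 2.37, and 1.54 and 1.67.

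Of 10 regulators of mitochondrial biogenesis 4 were higher (40%, near the 37.5% of all tested genes) and 0 lower (against 34.1%) in BC44 than in C57MG. In HC11 5 were higher (50%, against 37.4%) and 1 lower (10.0%, against 33.2%). Myc, whose protein binds the E-box, was at 65.4 and 75.8 RPKM in BC44, at 70.5 and 86.4 in HC11 and at 37.5 and 27.98 in C57MG (1.10 ± 0.16 and 1.24 ± 0.16, limma adjusted p = 4.78e-04 and 2.63e-04). Pprc1, a coactivator, was at 19.2 and 21.1, 19.99 and 22.2, and 9.02 and 7.95 RPKM. Esrra, an orphan nuclear receptor, was at 16.7 and 14.1, 25.2 and 20.04, and 5.86 and 7.79 RPKM. Gabpa, the DNA-binding GABP subunit, was at 27.2 and 30.6, 23.1 and 22.5, and 15.8 and 14.5 RPKM. All 4 exceeded C57MG in both lines. Nrf1 and Yy1 passed no test: Yy1 was at 40.1 and 43.4 RPKM in BC44, at 38.8 and 40.7 in HC11 and at 35.9 and 37.4 in C57MG. Ppargc1a, another coactivator, was at 2.49 and 2.25 RPKM in HC11 and at no more than 0.268 in any other library.

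Most cytosolic ribosomal protein genes were also lower in C57MG. With kinases and binding proteins left out, 55 of 81 were higher (67.9%, against 37.5% of all tested genes) and 7 lower (8.64%, against 34.1%) in BC44 than in C57MG, with a median of 0.38. In HC11 57 were higher (70.4%, against 37.4%) and 6 lower (7.41%, against 33.2%), with a median of 0.39. Rpl29 was the largest exception, with 380 and 364 RPKM in C57MG against 54.6 and 53.6 in BC44 and 52.0 and 53.7 in HC11, and near-identical gene copies make ribosomal protein values uncertain. Of the 83 listed genes of nuclear oxidative phosphorylation subunits 36 were higher (43.4%) and 19 lower (22.9%) in BC44 than in C57MG, with a median of 0.14, and 34 (41.0%) and 22 (26.5%) in HC11, with a median of 0.08. With 7 assembly factors left out after the values were seen, 36 of 76 were higher and 17 lower in BC44 (median 0.23), and 33 and 18 in HC11 (median 0.10). Atp5h was at 126 and 116 RPKM in BC44, at 327 and 278 in HC11 and at 109 and 111 in C57MG, and Atp5g2 at 228 and 218, 261 and 217, and 598 and 576. Atp5h starts 0.188 Mb before Mrps7, so it is among the genes of the window described above, with a BC44 minus HC11 difference of -1.31. The 18 proliferation genes summed to 1543 to 1804 RPKM in the 6 libraries, with 5 higher (27.8%, against 37.5% of all tested genes) and 6 lower (33.3%, against 34.1%) in BC44 than in C57MG. Mcm6, of the replicative helicase, was at 78.2 and 88.6 RPKM in BC44, at 91.9 and 84.1 in HC11 and at 200.1 and 196 in C57MG, whereas Rrm2 was at 93.6 and 111, 117 and 153, and 73.6 and 61.6.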

How the data were processed

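The deposited values are RPKM that the authors computed, per the name and header of the deposited table, 1 value per gene and library for 11417 genes. The submitters' processing notes name STAR and mm9. The counter, annotation, gene lengths, scaling total and any filter are not given in the sources used here. All 11417 identifiers and symbols matched GENCODE M21 (GRCm38), from which coordinates and gene order were taken, and promoters are RefSeq's (GRCm38.p6).

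Depth was estimated from steps in low values: 75.0% to 83.5% of those used lay within 0.15 reads of a whole multiple, against 30.0% by chance. Estimated read numbers rest on this depth and on GENCODE exon lengths, which need not be those behind the RPKM, so they are approximate.

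log2(RPKM + 1) of all 6 libraries was fitted in R 4.3.3 with the package limma 3.58.1, its functions lmFit and contrasts.fit, and eBayes with a trend. Genes with at least 1 RPKM in at least 2 libraries were fitted (10759; 658 were not), and two-sided p-values were adjusted by Benjamini-Hochberg within each of 3 comparisons, with a threshold of 0.05. A limma warning said that variances of zero were offset. An exact permutation test of 2 against 2 libraries cannot give p under 0.33, so none was used, and sums, medians and ratios over the genes have no test. Differences on this scale understate the change of low genes. The fit was also run on simulated data with independent noise and changes in BC44 alone. The lines here differ in far more genes, so that run does not give the error rate of these results. Python 3.11.15, pandas 2.3.3, numpy 2.4.6 and matplotlib 3.10.9 did the rest.

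The genes and lists were chosen with earlier results of these data known. Named were, per comparison and direction, the 3 passing genes with the largest differences and no overlap between libraries, the 3 farthest from the median of the 76, the 3 highest and 3 lowest by level, the 3 with the smallest range, a list by role, and 2 genes with the largest difference of each accompanying list. Rps6ka6, a kinase that a name pattern caught, was left out of the ribosomal protein list after its value was seen. Fau, Gga3, Mtbp, Ndufs6, Slc5a3, Urgcp, Gabpa, Myc, Nrf1, Pprc1, Tufm, Yy1, Mrpl19, Mrpl22, Mrpl30, Mrpl35, Mrpl46, Mrpl49, Mrpl53, Mrps9 and Mrps11 joined them with their values known.

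Alternatives tried were another pseudocount (0.1), testing every gene, a filter on means below 5 RPKM, median-ratio scaling, quantile normalization, rescaling to a common sum, the 4 compared libraries only, limma without trend or with robust variance, a replicate block, each library left out, and differences minus those of 40 neighbouring genes.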

Additional observations from a re-analysis of the deposited data

How the results depend on the processing

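The number of the 76 genes that passed was 17 to 23 between BC44 and HC11, 28 to 47 between BC44 and C57MG and 36 to 46 between HC11 and C57MG with each library left out in turn. Their median difference then ranged from -0.06 to 0.01, from 0.21 to 0.30 and from 0.21 to 0.29. A replicate block left 26, 45 and 47 genes passing; same-numbered libraries did not deviate together in every comparison (correlations of 0.354, -0.039 and 0.038 over genes), so the number was not taken to pair the libraries. Rescaling to a common sum gave medians of 0.06 for BC44 against HC11 and 0.17 for HC11 against C57MG. All tested genes then had medians of 0.08 and -0.06. The summed levels were 2560 RPKM in HC11 and 2124 in C57MG, and the median levels 23.9 and 20.8. Quantile normalization gave a median of 0.22 for HC11 against C57MG, a median level of 24.6 RPKM in HC11 and a subunit ratio of 0.433 in C57MG. A mean of at least 5 RPKM gave 25.1 RPKM in HC11 and 0.437 in C57MG. Subtracting the neighbouring genes gave medians of -0.04, 0.20 and 0.21, and turned Mrpl13 between BC44 and HC11 to -0.03 and Mrpl42 between HC11 and C57MG to -0.02. Without Mrpl12, Mrps6, Mrps7 and Mrpl38, an alternative chosen after seeing the data, summed levels were 2233, 2169 and 1798 RPKM in BC44, HC11 and C57MG, median levels 23.6, 23.8 and 19.4, and the ratio 0.364 in HC11 and 0.371 in C57MG. Of 2067 recomputed values for 130 passing differences of named genes, 1977 stayed past the threshold in the same direction, 90 (in 25 differences, 69 of them from leaving out a library) did not pass, and 0 reversed. The causes were not tested. With 2 libraries per line, small differences rest on few residual degrees of freedom, and a lone library left in a line is assumed to vary like the others.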

Other observations

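Genes with and without a bacterial counterpart, as assigned by the list of gene numbers, were also counted apart. Between BC44 and HC11, of the 44 with a counterpart 9 were higher in BC44 (20.5%, against 24.7% of all tested genes) and 4 in HC11 (9.09%, against 23.0%), with a median difference of 0.02. Of the 32 mitochondria-specific genes 4 were higher in BC44 (12.5%) and 9 in HC11 (28.1%), with a median of -0.12. The difference between the classes was not tested. Of those with a counterpart 22 were higher (50%, against 37.5% of all tested genes) and 3 lower (6.82%, against 34.1%) in BC44 than in C57MG, and of the mitochondria-specific genes 15 (46.9%) and 4 (12.5%), with medians of 0.24 and 0.26. In HC11 21 were higher (47.7%, against 37.4%) and 6 lower (13.6%, against 33.2%) among the first and 18 (56.2%) and 2 (6.25%) among the second, with medians of 0.15 and 0.33. At least 2-fold passing differences between HC11 and C57MG were found for 11 of the 44 (25%, near the 27% of all tested genes) and 3 of the 32 (9.38%).

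The 24 genes with the ETS letters in their promoter had a median BC44 minus C57MG difference of 0.08, and the 43 without them one of 0.30. The 12 with the YY1 letters had a median of 0.50, against 0.21 for the 55 without. For HC11 minus C57MG the medians were 0.11 and 0.35 for the ETS letters and 0.45 and 0.15 for the YY1 letters. Mrps12, Mrps18a and Mrps27 hold both. The 5 genes with the E-box had medians of 0.47 and 0.42 in the same 2 comparisons, against 0.23 and 0.22 for the 62 without. The 3 with the NRF1 palindrome had medians of 0.30 and 0.29, against 0.24 and 0.27 for the 64 without. These medians were not tested.

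Replicate libraries lay about as close to each other for the 76 genes as for all tested genes. The median gap between replicates was 0.12 log2 units for BC44, 0.10 for HC11 and 0.078 for C57MG, and over all tested genes 0.12, 0.14 and 0.08. The largest gaps were 0.35 for Mrps31 in BC44, 0.39 for Mrpl23 in HC11 and 0.31 for Mrps30 in C57MG.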
